A study of Mus musculus with 10 samples.

Results

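Among 35375 features counted in the mouse thymus, 8 genes are described here that were read at very different levels in different animals. They are BC018473 (ENSMUSG00000056032), Gm11735 (ENSMUSG00000078586), St6galnac1 (ENSMUSG00000009588), Klk1b22 (ENSMUSG00000060177), Slc15a2 (ENSMUSG00000022899), Eno1b (ENSMUSG00000059040), Gm9855 (ENSMUSG00000085666) and Sva (ENSMUSG00000023289). They were picked on these same counts, as genes whose libraries fall into a high and a low level 8-fold or more apart, mostly across genotypes, so their levels and gaps are given as a description without a test. RNA was taken from the thymus of C57BL/6J mice 3 days after birth. Usp7, which encodes a deubiquitinating enzyme, was knocked out in the hematopoietic system on both alleles (homozygous KO, 3 animals) or on 1 allele (heterozygous KO, 3 animals), and 4 animals were wild type for Usp7. The series counts 2 wild types with induced cre, the recombinase that deletes the targeted allele, and 2 without, and its labels do not say which library is which, nor which promoter drives cre. Wild types 1 and 2 have a repeated wt in their titles and in their column names, and wild types 3 and 4 have a single wt, with het added in the column name alone; the titles were followed, and the meaning of these words is not stated. Total RNA was depleted of ribosomal RNA, made into stranded libraries and counted per gene. Depth was 39.8 to 122 M counts, with wild types 1 and 2 the shallowest, and levels are given as CPM, which sets each count against its library's TMM-scaled total. A count of 0 allows up to 3 counts, which was 0.0260 CPM at the greatest depth and 0.0737 CPM at the least, and such limits cover counting error only.

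Usp7 itself was at 303, 422 and 408 CPM in homozygous KO, 472, 516 and 516 CPM in heterozygous KO, and 676, 670, 594 and 589 CPM in wild type, so the 3 genotypes did not overlap. Relative to wild type, edgeR gave it a log2 fold change of -0.74 for homozygous KO (SE 0.11, adjusted p = 0.00052) and -0.34 for the heterozygous animals (SE 0.11, adjusted p = 0.608). All 8 of 8 thymocyte markers (Cd3e, Cd4, Cd8a, Cd8b1, Rag1, Rag2, Ptcra and Lck) were above 1 CPM in every library, with a summed level of 8295 to 8477 CPM in homozygous KO, 9628 to 10328 CPM in heterozygous KO and 9796 to 11106 CPM in wild type. B cell markers summed to 6.28 to 8.91 CPM in homozygous KO, below the 25.8 to 28.2 CPM of heterozygous KO and the 28.8 to 45.8 CPM of wild type. Ddx3y, a Y-linked gene, was high in homozygous KO 1 and 2, the 3 heterozygous KO libraries and wild type 1, and Xist, the X-inactivation RNA of females, was high in the other 4. Between heterozygous KO and wild type this split thus runs largely along genotype, with wild type 1 the exception. Its part in the differences between genotypes was not tested. In whole tissue, fewer cells of a type and less RNA per cell cannot be told apart.

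The 8 genes differ in kind. St6galnac1 encodes a sialyltransferase that adds sialic acid to O-linked sugar chains, and Gm11735 is annotated as an unprocessed pseudogene, a duplicated gene copy that keeps its introns. BC018473 is a noncoding RNA annotated as antisense. Klk1b22 belongs to the glandular kallikreins, secreted serine proteases known best from salivary glands, and Sva encodes a secreted protein named as seminal vesicle antigen. Slc15a2 encodes a proton-coupled transporter of small peptides. Eno1b is a copy of Eno1, the gene of the glycolytic enzyme enolase, and Gm9855 is a processed pseudogene, a copy made through reverse transcription, of Tdg, which encodes thymine DNA glycosylase. Inbred mouse strains are known to differ in gene copies and in short inserted sequences, and stocks that mix strains can carry both forms of such a locus. The counts hold no allele information, so whether variants between strains segregated among these 10 animals was not tested.

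On chromosome 11, 3 of the 8 genes lie side by side. In GRCm38 coordinates, Gm11735 runs on the minus strand from 116739062 to 116749833, BC018473 on the plus strand from 116752167 to 116759373, and St6galnac1 on the minus strand from 116765025 to 116775507. They span 36.4 kb, with 2333 bases between Gm11735 and BC018473 and 5651 bases between BC018473 and St6galnac1, and none of them overlaps another annotated gene. Gm11735 and St6galnac1 are near copies. The longest transcript of Gm11735, 1581 bases in 9 exons, aligned over its whole length with St6galnac1 at 97.976% identity, with 32 mismatches and no gap. The 90-base stretch within 1 exon of each and within coding sequence of St6galnac1 that holds the most mismatches is printed for both genes, read on the transcript strand, with the 10 differing bases in capitals. It is shown because, within the aligned part (66.1% of the St6galnac1 transcript), reads can be assigned to one copy or the other only through such bases. It lies in exon 2 of both, at chr11:116742611-116742700 for Gm11735 and chr11:116769280-116769369 for St6galnac1.
Gm11735: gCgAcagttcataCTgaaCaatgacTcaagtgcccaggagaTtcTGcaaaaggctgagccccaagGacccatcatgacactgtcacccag
St6galnac1: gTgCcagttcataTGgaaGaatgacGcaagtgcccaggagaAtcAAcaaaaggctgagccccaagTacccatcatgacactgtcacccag

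Gm9855 and Tdg are closer still. The single exon of Gm9855, 1194 bases on the minus strand of chromosome 10 from 42054113 to 42055306, aligned over its whole length with Tdg at 99.246% identity and 9 mismatches. Tdg lies on the same chromosome from 82629828 to 82650799. The stretch chosen in the same way held 4 differing bases and lies at chr10:42054166-42054255 for Gm9855 and, in exon 10, at chr10:82648578-82648667 on the plus strand for Tdg.
Gm9855: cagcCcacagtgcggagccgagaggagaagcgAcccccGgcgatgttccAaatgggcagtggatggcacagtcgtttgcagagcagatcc
Tdg: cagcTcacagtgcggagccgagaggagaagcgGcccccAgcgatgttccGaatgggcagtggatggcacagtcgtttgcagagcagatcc

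Eno1b, on the plus strand of chromosome 18 from 48045335 to 48048412, aligned with Eno1 over 1652 bases at 99.455% identity, with 9 mismatches. How far a gene can be told from its copies was counted as the share of its 50-base windows that also occur in the transcripts of another gene. That share was 85.3% for Gm9855, 84.5% for Eno1b, 53.4% for Gm11735, 34.9% for St6galnac1 and 13.3% for Klk1b22. It was 0.0% for BC018473, Slc15a2 and Sva. Reads of Gm9855, Eno1b, Gm11735 and St6galnac1 could thus be split between copies in ways that depend on the counting, and how reads that map to several places were handled is not given in the sources used here.

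BC018473 was the most abundant of the 3 chromosome 11 genes. It was read at 2.84, 210 and 197 CPM in homozygous KO 1, 2 and 3, at 1.45, 1.21 and 0.610 CPM in heterozygous KO, and at 0.688, 104 CPM, 1.06 and 1.21 CPM in wild types 1 to 4. Homozygous KO 2 and 3 and wild type 2 were high and the other 7 libraries low, with a gap of 36.7-fold between the lowest high library and the highest low one. Among the 3 high libraries wild type 2 was the lowest, 1.89-fold below the next.

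St6galnac1 had the same 3 libraries high. It had 1617 and 1388 counts in homozygous KO 2 and 3 and 469 counts in wild type 2, which are 15.8, 15.4 and 11.3 CPM. In the other 7 libraries it had 6 counts in homozygous KO 1 and 0 to 2 counts in each of the rest, and the levels were at least 153-fold apart when counts under 3 were set to 3. Its copy Gm11735 had 593 and 596 counts in homozygous KO 2 and 3 and 154 counts in wild type 2, which are 5.80, 6.61 and 3.71 CPM. Elsewhere Gm11735 had 5 counts in homozygous KO 1 and 0 or 1 count in each of the other 6 libraries, so its levels were at least 50.3-fold apart. For all 3 genes wild type 2 stood below both high homozygous KO libraries, and homozygous KO 1 was the highest of the low libraries by CPM. None of the 3 heterozygous KO libraries was high. No other feature with a gap of at least 8-fold had these 3 libraries above its gap. Summed fibroblast markers (Col1a1, Col1a2, Col3a1 and Pdgfra, 4 of 4 in the table and 1 above 1 CPM in every library) were also highest in homozygous KO 2 and 3 and wild type 2, at 30.4, 16.5 and 11.96 CPM against 4.12 to 9.81 CPM in the other 7 libraries, and their part in the level of these genes was not tested.

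**Figure D1:**
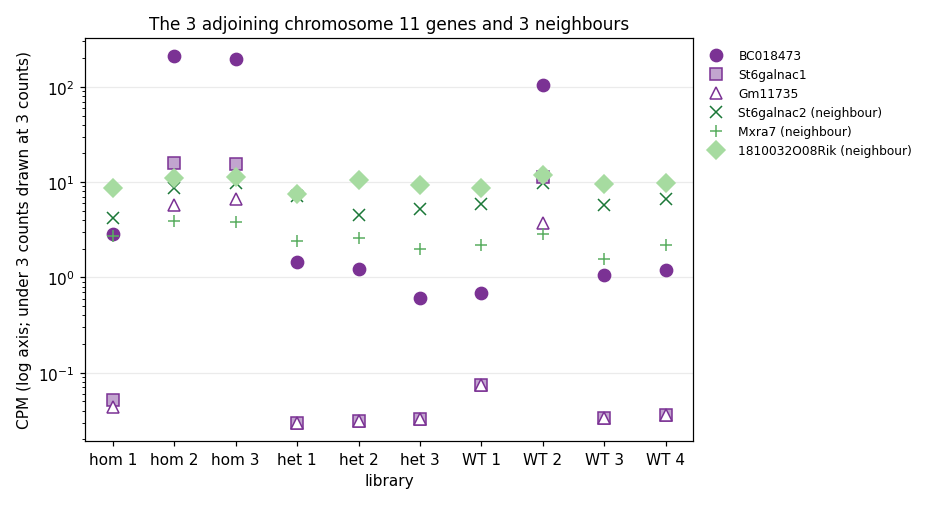
CPM on a log axis of BC018473, St6galnac1 and Gm11735 and of 3 neighbours in each of the 10 libraries (hom, homozygous KO; het, heterozygous KO; WT, wild type), 1 point per gene and library, with counts under 3 drawn at the level of 3 counts. The purple genes are high in hom 2, hom 3 and WT 2, while the green neighbours stay between 1.56 and 11.9 CPM in all 10 libraries.

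The genes around this cluster did not share the step. Of 55 tested neighbours of BC018473, genes whose bodies lie within 1 Mb, the largest gap was 2.87-fold, in Gm16045. The nearest tested genes outside the cluster are St6galnac2, 44.2 kb from Gm11735, and Mxra7, 27.6 kb from St6galnac1. St6galnac2, which encodes another sialyltransferase of the family, was at 4.18, 8.61 and 9.78 CPM in homozygous KO, 7.22, 4.51 and 5.17 CPM in heterozygous KO and 5.84, 9.77, 5.72 and 6.65 CPM in wild type. Its 3 highest libraries were those of the cluster, and its largest gap was 1.19-fold. In Mxra7, which encodes a matrix-remodelling associated protein, the same 3 libraries were at 3.93, 3.82 and 2.89 CPM and the other 7 at 1.56 to 2.75 CPM. The third such neighbour was 1810032O08Rik, at 11.2, 11.2 and 11.9 CPM in these libraries and 7.42 to 10.4 CPM in the others. Of all 19511 tested genes, 0.769% had these 3 libraries on top, and 3 of the 55 neighbours did. Mxra7 was also higher in homozygous KO than in wild type, by 0.68 on the log2 scale (SE 0.22, edgeR quasi-likelihood, adjusted p = 0.0437).

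Klk1b22, on the plus strand of chromosome 7 from 44112673 to 44116922, had another set of 3 high libraries. It was at 34.6 CPM in wild type 1, 16.2 CPM in wild type 2 and 11.3 CPM in homozygous KO 3. The other 7 libraries held 0 to 9 counts each, with wild type 4 highest at 0.109 CPM, and the gap was 104-fold. Wild type 2 and homozygous KO 3 were high for the chromosome 11 genes as well, but wild type 1 was not, and homozygous KO 2 was high there and had no count of Klk1b22. No heterozygous KO library was high, as on chromosome 11. The other 13 Klk1b genes in the table stayed at or under 0.270 CPM in every library, and Klk1 at or under 0.410 CPM. The highest of the 13 was Klk1b21, the closest gene to Klk1b22 in sequence (88.681% identity), with at most 11 counts in a library. It was at 0.270 and 0.0722 CPM in wild types 1 and 2, 0.0665 CPM in homozygous KO 3 and 0 CPM elsewhere. Those are the 3 libraries with high Klk1b22, and whether shared sequence had a part in this was not tested. Salivary gland markers (Amy1, Bpifa2, Smr3a, Prol1, Dcpp1, Aqp5 and Muc19, of which 5 of 7 are in the table) summed to at most 0.585 CPM, with Smr3a and Prol1 at 0 in every library. That sum was 0.246, 0.168 and 0.466 CPM in the 3 libraries with high Klk1b22, and its highest value was in wild type 3, where Klk1b22 had 1 count. These markers were low in every library, and the part of salivary gland tissue in the level of Klk1b22 was not tested. The nearest tested genes are Klk1, 108 kb away, and Klk7, a kallikrein gene of the skin, 296 kb away, and neither had a gap above 2.09-fold.

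Slc15a2 was the reverse, expressed widely and missing in 1 animal. The gene lies on the minus strand of chromosome 16 from 36750177 to 36784962, 28.0 Mb from Usp7 on the same chromosome. It was at 43.3, 69.7 and 0.0554 CPM in homozygous KO, 4.54, 53.4 and 112 CPM in heterozygous KO, and 93.4, 83.5, 77.0 and 43.3 CPM in wild type. Homozygous KO 3 held 5 counts, against 454 to 10295 counts in the other 9 libraries, and the gap was 81.9-fold. Heterozygous KO 1 stood between the levels, 9.54-fold below the next library, so 3 levels rather than 2 describe this gene. Without homozygous KO 3 its largest gap was 3.25 on the log2 scale, the step below which heterozygous KO 1 lies, and without heterozygous KO 1 it was 9.61. Eaf2, a transcription elongation factor gene 7.92 kb away, was at 1.69 to 3.13 CPM in the 10 libraries, with 2.04 CPM in homozygous KO 3. Ildr1, 23.4 kb away on the other side, was at 0.252 to 0.968 CPM, with 0.355 CPM in homozygous KO 3. In neither was homozygous KO 3 the lowest library, and no tested neighbour within 1 Mb had a gap of 8-fold. Homozygous KO 3 was the lowest library in 2 of the 31 tested neighbours, and in 11.2% of all tested genes.

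Homozygous KO 3 was also the low library of 2 further features with a gap of at least 8-fold. Tmem108, which encodes a transmembrane protein, was at 0.0665 CPM there, a gap of 37.1-fold. It was at 2.46 and 3.13 CPM in homozygous KO 1 and 2 and at 3.26 to 8.06 CPM in heterozygous KO and wild type. Ccr2, a chemokine receptor gene of monocytes and some lymphocytes, was at 0.0776 CPM there, a gap of 12.5-fold. It was at 1.87 and 0.968 CPM in homozygous KO 1 and 2 and at 3.74 to 6.14 CPM in heterozygous KO and wild type. In both genes the homozygous KO libraries were thus the lowest of all. Both lie on chromosome 9, and neither was low in heterozygous KO 1.

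Eno1b took 3 levels. Homozygous KO 1 was at 0.278 CPM, wild type 1 at 0.467 CPM and wild type 3 at 0.529 CPM. Then came heterozygous KO 1 at 16.6 CPM, wild type 4 at 18.5 CPM, homozygous KO 3 at 19.5 CPM and wild type 2 at 21.6 CPM. Heterozygous KO 3 at 32.9 CPM, heterozygous KO 2 at 35.8 CPM and homozygous KO 2 at 48.2 CPM were highest. The lower gap was 31.4-fold, and the upper one 1.52-fold, so the upper step was far smaller than the lower. Each genotype held libraries of more than 1 level, and no heterozygous KO library was at the lowest.

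The 3 levels were clearer as shares of the counts of Eno1b and Eno1 together. Eno1b took 0.0730%, 15.4% and 7.15% of the counts of both genes in homozygous KO 1, 2 and 3. The share was 6.41%, 14.8% and 14.7% in heterozygous KO, and 0.163%, 7.41%, 0.161% and 7.25% in wild type. Of the 10 libraries, 4 therefore lay between 6.41% and 7.41% and 3 between 14.7% and 15.4%, and the 95% Wilson interval, which covers counting error only, was at most 0.965 percentage points wide in any library. Eno1 was at 380, 264 and 253 CPM in homozygous KO, 242, 207 and 192 CPM in heterozygous KO, and 286, 270, 328 and 237 CPM in wild type. Within each genotype the library or libraries with the least Eno1b had the most Eno1. A further near copy, Gm4735, which shares 99.77% identity with Eno1b over 1302 bases, was at 0.942 to 2.20 CPM in all libraries.

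Gm9855 was high in 1 homozygous KO library, 2 heterozygous KO libraries and 2 wild types. It was at 17.7, 0.968 and 0.621 CPM in homozygous KO, 14.5, 14.9 and 0.860 CPM in heterozygous KO, and 0.958, 11.8, 14.4 and 0.399 CPM in wild type. Its gap of 12.2-fold was the smallest of the 8, and within the 5 high libraries the values spread over 1.501-fold. As a share of the counts of Gm9855 and Tdg together it came to 15.8% for homozygous KO 1, to 15.98% and 15.0% for heterozygous KO 1 and 2, and to 14.5% and 15.7% for wild types 2 and 3. In the other 5 libraries the share was 0.362% to 0.884%, and no interval was wider than 2.37 percentage points.

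Tdg was at 94.9, 132 and 125 CPM in homozygous KO, 76.5, 84.7 and 109 CPM in heterozygous KO, and 107, 69.7, 77.1 and 110 CPM in wild type. Homozygous KO 1, heterozygous KO 1 and 2 and wild types 2 and 3, the libraries with high Gm9855, each had less Tdg than the others of their genotype. The sum of both genes was lower there as well, at 113 CPM in homozygous KO 1 against 133 and 125 CPM in homozygous KO 2 and 3. Tdg-ps, another copy at 98.911% identity, was at 0.608 to 1.14 CPM throughout. No level is given here for Gm5597, a closer copy of Gm9855 at 99.162% identity over 1193 bases. The nearest tested genes, Armc2 at 35.7 kb and Foxo3, a forkhead transcription factor gene, at 127 kb, had largest gaps of 1.23-fold and 1.14-fold.

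**Figure D2:**
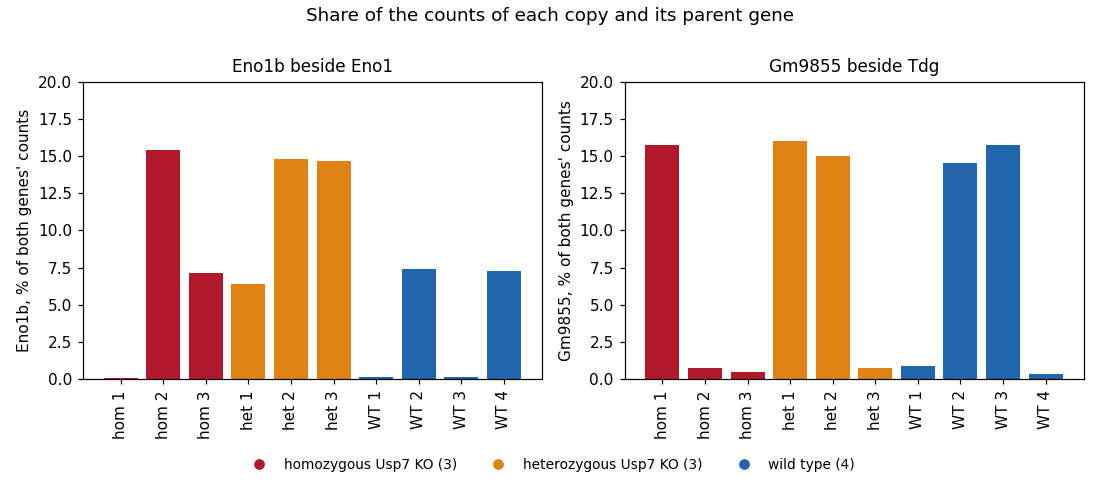
Bars give Eno1b as a percentage of the counts of Eno1b and Eno1 together (left) and Gm9855 as a percentage of those of Gm9855 and Tdg (right) in each library, from 0, coloured by genotype. Eno1b lies near 0, between 6.41% and 7.41%, or between 14.7% and 15.4%, and Gm9855 lies at or under 0.884% or between 14.5% and 15.98%.

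Sva differed from the other 7 genes in that its split followed genotype. The gene lies on the plus strand of chromosome 6 from 42038394 to 42042851. It was at 2.22, 3.22 and 2.80 CPM in homozygous KO (mean 2.75 ± 0.500, SD, n = 3) and at 4.11, 2.72 and 2.94 CPM in heterozygous KO (mean 3.26 ± 0.746, SD, n = 3). All 4 wild types had 0 counts, against 253 to 411 counts in the 6 KO libraries, so the levels were at least 30.2-fold apart. Sva was the only feature with a gap of at least 8-fold that set the wild types apart from both KO groups, and it goes against the description of these genes as varying across genotypes. Its relatives Sval1, Sval2, Sval3 and Pip stayed at or under 0.0419 CPM. The nearest tested genes, Gstk1 at 203 kb and Kel, a blood group antigen gene of red cells, at 334 kb, did not share the split of Sva. Beyond Kel, towards lower coordinates, lie the T cell receptor beta genes. Kel was highest in homozygous KO 1 and 2, at 8.70 and 2.95 CPM, where summed erythroid markers were 832 and 886 CPM against 77.3 to 686 CPM in the other libraries, and their part in its level was not tested.

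**Figure D3:**
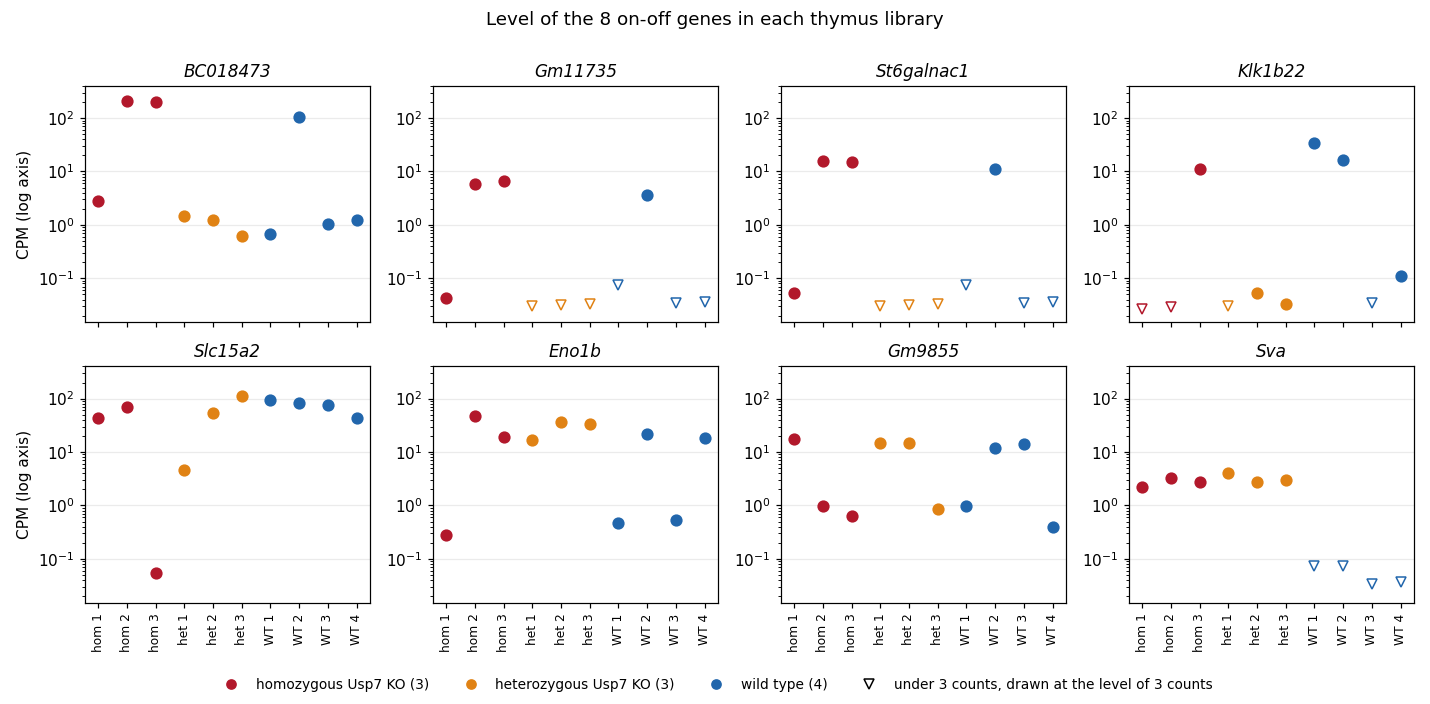
Each panel shows the CPM of 1 gene on a log axis in the 10 libraries, coloured by genotype, with open triangles for counts under 3, drawn at the level of 3 counts. Only Sva separates the wild types from both KO groups, and the other 7 genes have high and low libraries within at least 1 genotype.

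The 8 genes were set beside all features measured in the same way. A largest gap of at least 8-fold was found in 86 of 18972 features with at least 20 counts in their highest library (0.453%), the 8 genes included, as the rule requires. Of the 86, 47 split along genotype, 46 of them with homozygous KO apart and 41 of those with homozygous KO low. A further 5 split as Ddx3y did, and 12 had 1 library apart. The remaining 22 split otherwise. None of the 8 genes split as Ddx3y did. Of the 34 features that split along neither genotype nor Ddx3y, 7 were among the 8 genes, and in 8 others homozygous KO 1 and 2 were high (Rhag, Cldn13, Ypel4, Ank1, Ermap, Add2, Sox6 and D630023F18Rik). Those 2 libraries had the highest erythroid markers, but wild type 4, with a sum of 686 CPM, had these 8 genes at or under 0.641 CPM. Gm9855, at 12.2-fold, was the gene of the 8 nearest the threshold, and the features just below it that split along neither genotype nor Ddx3y were Gm4779 at 7.74-fold, Il1f9 at 7.73-fold and Arntl2 at 7.65-fold.

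**Figure D4:**
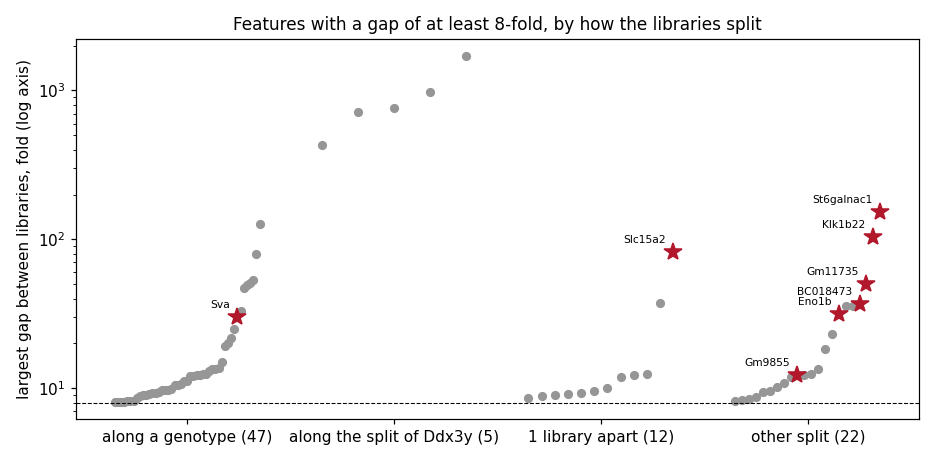
Each point is 1 of 86 features with a largest gap of at least 8-fold, on a log axis, placed by how its libraries split, with the 8 genes as stars. Of the 22 features with other splits 6 are among the 8 genes, Slc15a2 is among 12 features with 1 library apart, and Sva is among 47 that split along genotype.

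The libraries can also be read across the genes. With the 3 chromosome 11 genes counted as 1 locus, homozygous KO 3 was high for that locus, Klk1b22, Eno1b and Sva, and low for Gm9855 and Slc15a2. Wild type 2 was high for every locus but Sva. Homozygous KO 1 was high for Gm9855, Slc15a2 and Sva and low for the rest, and wild type 1 was high for Klk1b22 and Slc15a2 alone. The 3 heterozygous KO libraries were low for the chromosome 11 genes and Klk1b22 and high for Eno1b and Sva, and heterozygous KO 1 and 2 were on the same side of the gap for every gene. The labels number the animals 44 to 63 without saying what the numbers stand for, and no animal is numbered between 51 and 56. Eno1b was high in 2 of the 5 animals numbered 44 to 51 and in 5 of the 5 numbered 56 to 63, and Gm9855 in 4 and in 1. The other counts were 1 and 2 for the chromosome 11 genes, 2 and 1 for Klk1b22, 5 and 4 for Slc15a2, and 2 and 4 for Sva, and the part of the animal number in these levels was not tested.

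Beyond the 8 genes, 214 tested genes lie within 1 Mb of at least 1 of them. Their largest gaps had a median of 1.23-fold, as did all 19511 tested genes (1.23-fold), and 1 of the 214 reached 8-fold. That was Siglecg, an inhibitory receptor gene of B cells 694 kb from Klk1b22, with a gap of 12.5-fold and homozygous KO low, along with the B cell markers given above, whose part in it was not tested. No tested neighbour had a gap of 8-fold along the same libraries as the gene it adjoins.

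**Figure D5:**
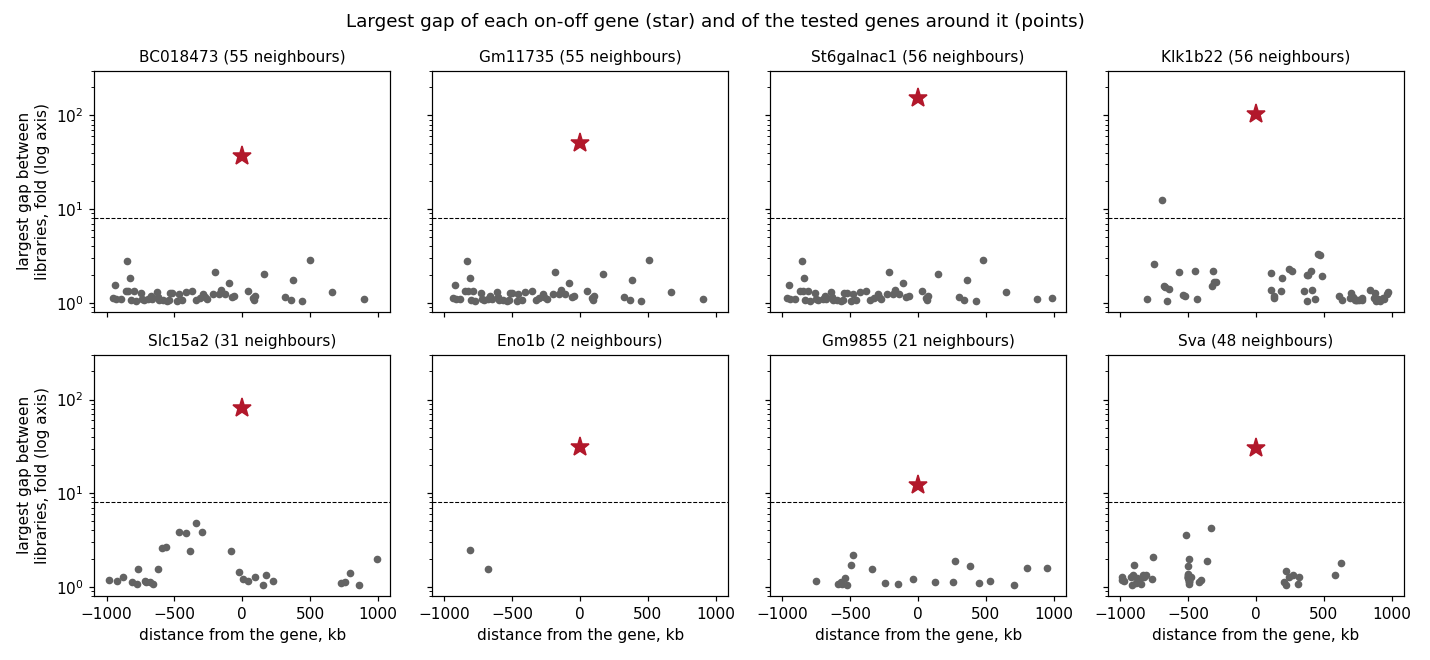
Each panel plots the largest gap between libraries on a log axis for 1 gene (star, at 0) and for the tested genes within 1 Mb of it (points), against distance in kb, negative towards lower coordinates. The dashed line marks 8-fold, and 1 point, Siglecg near Klk1b22, lies above it.

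The genotypes were compared over all genes for background. With edgeR's quasi-likelihood test at a Benjamini-Hochberg adjusted p under 0.05, homozygous KO against wild type gave 2446 of 19511 genes higher (12.5%) and 2584 lower (13.2%). Heterozygous KO against wild type gave 3 higher (0.0154%) and 0 lower (0.0%), with 1421 genes at an unadjusted p under 0.05 and 71 calls by DESeq2. Homozygous against heterozygous KO gave 1489 higher (7.63%) and 1853 lower (9.5%). Among the 8 genes, Sva was called in both comparisons with wild type, and Gm11735 and BC018473 in homozygous against heterozygous KO, all higher, and nothing is read from these calls because the same counts chose the genes. The comparisons share groups, and their fit held no term for the split of Ddx3y.

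Of the 214 neighbours, 38 were higher (17.8%) and 24 lower (11.2%) in homozygous KO than in wild type, and 33 were higher (15.4%) and 19 lower (8.88%) in homozygous than in heterozygous KO. T cell receptor beta segments near Sva made up 10 of the 38 higher and 5 of the 24 lower genes in the first comparison, and 12 of the 33 higher and 4 of the 19 lower in the second. The 52 calls of the second comparison became 33 when these 2 groups alone were fitted and 30 without heterozygous KO 3. In heterozygous KO against wild type 1 neighbour was called, Commd10, 811 kb from Eno1b on chromosome 18. Commd10, whose product takes part in endosomal sorting, was at 42.2 to 46.4 CPM in all 6 KO libraries and 14.6 to 17.2 CPM in the 4 wild types, without overlap. Homozygous KO exceeded wild type by 1.43 on the log2 scale (SE 0.07, edgeR, adjusted p = 5.1e-07) and the heterozygous animals by 1.47 (SE 0.07, edgeR, adjusted p = 6.4e-06). Sema6a, a semaphorin gene 676 kb from Eno1b and its only other tested neighbour, was at 0.590 to 1.65 CPM in the KO libraries and 0.368 to 0.457 CPM in wild type, and passed the test in homozygous KO alone (higher by 1.14, SE 0.31, edgeR adjusted p = 0.0202, against 0.493 in the heterozygous animals). Neither of these neighbours followed the libraries of Eno1b, whose levels were mixed within genotypes.

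The other neighbours with the smallest p-values lie near Sva and Slc15a2. Trbj2-1, a joining segment of the T cell receptor beta chain 496 kb from Sva, was at 15.0 to 16.8 CPM in homozygous KO and 6.16 to 7.65 CPM in the other 7 libraries, higher than wild type by 1.16 on the log2 scale (SE 0.10, edgeR, adjusted p = 1.6e-05). Cd86, a costimulatory gene of antigen-presenting cells 84.1 kb from Slc15a2, was at 1.48 to 1.81 CPM in homozygous KO and 4.33 to 6.26 CPM elsewhere, and fell by 1.75 on the log2 scale from wild type (SE 0.17, edgeR, adjusted p = 3.5e-05). Prss2, a trypsinogen gene that lies among the T cell receptor beta genes, fell by 2.36 on the log2 scale (SE 0.28, edgeR adjusted p = 0.00024) from heterozygous to homozygous KO. All 3 moved with homozygous KO, unlike Sva and Slc15a2.

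The relatives of the 8 genes that could be tested were not on-off. Klk1b21, described above with Klk1b22, was too low to test. Of 28 family genes in the table (Klk1 and Klk1b genes, St6galnac2 to St6galnac6, other Slc15 genes, enolases and Pip), 12 were expressed enough to test, and none of the 12 had a gap above 2.41-fold. None was higher in homozygous KO than in wild type and 3 were lower, namely St6galnac6, St6galnac3 and Eno3, the muscle enolase gene. The same 3 and Klk1 were lower in homozygous than in heterozygous KO, and none was called between heterozygous KO and wild type (1 at an unadjusted p under 0.05). The first count, 3 of 12, stands beside 25.8% of all genes called in that comparison, and the second, 4 of 12, beside 17.1%. St6galnac6 was at 1.41, 1.36 and 0.798 CPM in homozygous KO against 3.46 to 3.98 CPM in heterozygous KO and 3.13 to 3.85 CPM in wild type. St6galnac4, the most abundant of the family, was at 20.4 to 27.1 CPM in all libraries. The related peptide transporter genes Slc15a1, Slc15a3 and Slc15a4 were at 2.57 to 5.38, 2.03 to 3.38 and 23.9 to 33.4 CPM, and none had a gap above 1.34-fold. In homozygous KO 3, where Slc15a2 had 5 counts, Slc15a3 and Slc15a4 were at 2.78 and 33.4 CPM.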

How the data were processed

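Total RNA of 10 mouse thymuses was measured by sequencing. The authors deposited raw read counts per gene, 1 column per library. Per the processing notes, CASAVA, STAR 2.4.1d and HTSeq 0.6.1p1 were used, with builds NCBIM37 and mm9. The annotation release, the strand setting and the handling of multi-mapped reads are not given in the sources used here. Samples were grouped by title. Features without an Ensembl identifier held 1.74% to 2.29% of the counts. Symbols, positions and transcripts came from GENCODE M21 (GRCm38), a later build than that of the counting, matched by gene identifier (87.6% of identifiers). Transcripts were compared with BLAST 2.17.0.

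Counts were tested with edgeR 4.0.16 (R 4.3.3): TMM, filterByExpr, 1 quasi-likelihood fit over 10 libraries by genotype, Benjamini-Hochberg adjustment over 19511 genes. The p-values measure the spread between animals. The script was checked on simulated counts. DESeq2 1.42.0 and the other settings under the closing section were alternatives. The gap of a feature is the largest fold difference between libraries next to each other in order of CPM, with counts under 3 set to 3. The members, gene lists, tests and the naming rule were chosen with earlier results of these data known. That rule named the 8 genes, the nearest tested gene on each side, up to 5 features with the same libraries above the gap, up to 3 called neighbours per comparison by p, family genes with at least 1 CPM, and Commd10, Usp7, Xist and Ddx3y. Genes outside it (Tdg, Eno1, their copies, Mxra7, 1810032O08Rik, Gm16045, Siglecg, Sema6a and the features of the gap survey) were named after their values were seen. No 2 libraries of a genotype agreed within sampling noise (chi-square per degree of freedom of 13.5 to 117 in 12 pairs). Same-numbered libraries deviated from their group means with correlations of -0.157 to 0.325 in 9 pairs, so the numbers were not taken as pairs.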

Additional observations from a re-analysis of the deposited data

Results flagged for a closer look

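In the 4 wild types, 5 values, among 19 genes looked at, stood apart from the other 3 wild types by Dixon's criterion, which chance alone meets in about 1 of 20 groups. Wild type 2 stood above the others at 104 CPM for BC018473, 3.71 CPM for Gm11735 and 11.3 CPM for St6galnac1, which are adjoining genes and so 1 pattern rather than 3. These 3 genes were picked for levels that lie far apart, so that chance rate does not apply to them and their values are a description. Wild type 1 stood below the others at 0.368 CPM for Xist and above them at 96.4 CPM for Ddx3y, the only wild type with high Ddx3y.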

How the results depend on the processing

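All 8 genes kept a gap of at least 8-fold under every alternative that kept this threshold, and when each library was left out in turn (8 to 8 genes). At 16-fold 7 of them remained above the threshold, without Gm9855. Features with such a gap numbered 86, but 130 with a floor of 1 count, 316 at 4-fold and 28 at 16-fold, and 85 to 134 without single libraries, the 134 without homozygous KO 1. The gap of Slc15a2 ranged from 3.25 (without homozygous KO 3) to 9.61 (without heterozygous KO 1) on the log2 scale. Other log2 gaps that moved by over 1.5 times in fold were those of BC018473, from 5.20 to 6.17 without homozygous KO 1 and 6.12 without wild type 2, of Klk1b22, from 6.70 to 7.75 without wild type 4, and of Gm11735, from 5.65 to 6.42 without wild type 1 and 6.30 without wild type 2. With a floor of 10 counts the gaps of Gm11735, St6galnac1, Slc15a2 and Sva were 3.92, 5.52, 5.36 and 3.18, and with a floor of 1 count those of Gm11735 and Sva were 6.42 and 6.50, against 5.65, 7.26, 6.36 and 4.91 at the floor of 3. Genes called in heterozygous KO against wild type numbered 3, against 71 by DESeq2, 5 with a block for replicate number and 2 to 6 without single libraries, the 6 without wild type 4. The block, which pairs libraries that share only a number, changed no other count by over 1.5 times. Without single libraries 3945 to 4933 genes were called in homozygous KO against wild type and 2153 to 2990 in homozygous against heterozygous KO, the lowest without heterozygous KO 3. Neighbours called numbered 62, 1 and 52 in the 3 comparisons, and 46 to 68, 1 to 1 and 30 to 45 without single libraries, with 30 without heterozygous KO 3 and 31 without heterozygous KO 2. They numbered 33 in homozygous against heterozygous KO with only both groups fitted, 3 in heterozygous KO against wild type by DESeq2, 27, 0 and 24 of 97 within 500 kb and 11, 0 and 9 of 37 within 250 kb, where fewer genes enter by construction. Family genes called numbered 3 to 4, 0 to 0 and 2 to 5, with 2 without heterozygous KO 3. The other causes were not tested. No result reversed. Depth limits the low levels: wild types 1 and 2 have the highest floors.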

Other observations

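Other features outside the 8 genes had steps along libraries rather than genotypes, and they were chosen after their values were seen. Ccnb1ip1, which encodes a ubiquitin ligase needed for meiotic crossing over, and RNaseP_nuc.8.n, a feature named for an RNase P RNA, were both near 0 in homozygous KO 1 and wild type 3. Ccnb1ip1 was at 0.0174 CPM and 0 CPM there and at 0.421 to 2.50 CPM in the other 8 libraries. RNaseP_nuc.8.n was at 0.00868 and 0 CPM there and at 1.20 to 3.31 CPM in the others. Homozygous KO 1 and wild type 3 were also 2 of the 3 libraries with the least Eno1b. Gm4737 was at 1.79 CPM in wild type 1 and at 21.2 to 24.7 CPM in the other 9 libraries. Gm14287 was at 0.304 CPM in wild type 3 and at 2.89 to 7.25 CPM elsewhere. Gm5815 was at 26.2 CPM in homozygous KO 1 and at 1.88 to 3.06 CPM elsewhere. Rpl39l, a gene for a ribosomal protein variant, was at 0.0700 CPM in heterozygous KO 1, 0.0246 CPM in wild type 1 and 0.602 to 1.67 CPM elsewhere.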
